A study of Mus musculus with 21 samples.

Results

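The comparison described here set 7 podocyte fractions of middle-aged, saline-treated mice against 6 podocyte fractions of young, untreated mice. These 13 libraries, of 21 in the series, were taken by their labels. All mice were wildtype C57B6 mice. The young mice were 4 months old. The saline mice had received saline, the vehicle of the NLRP3 inhibitor MCC950, for the last weeks before collection at 19.5 months. The other 8 libraries, from MCC950-treated mice of the same age, entered the fit for its filter on low counts, its TMM factors and its estimate of the spread. Digested kidney cortex was incubated with antibodies to nephrin, bound cells were held on a magnetic column, and mRNA of the retained fraction was sequenced for each mouse.

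Podocytes are postmitotic epithelial cells whose interdigitating foot processes cover the glomerular capillaries. Foot processes are joined by the slit diaphragm, anchored through integrins to a basement membrane of type IV collagen and laminin, and kept in shape by actin. Podocytes also secrete vascular growth factors for the glomerular endothelium beneath them. Loss of podocytes, a rise of infiltrating leukocytes and changes of matrix, circadian, proteostatic and translational genes have each been described in aging kidneys, and these programs were examined one by one.

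The saline libraries were deeper than the young libraries, with 45772937 to 84876399 counts against 27375870 to 36827823 (p = 0.00117 by an exact permutation of the group labels, two-sided; 6 against 7 libraries allow no smaller value). Genes of the mitochondrial genome took 51.5% to 80.4% of the counts in young and 63.0% to 79.2% in saline libraries (p = 0.932 by the same exact permutation test). Young replicate 1 had the lowest share, and young replicate 5 and saline replicate 7 the highest of their groups, and list counts without these 3 libraries, or in libraries thinned to equal depth, are given beside a list where they moved by more than 1.5 times. Levels are given as CPM, read counts scaled to library size with edgeR's TMM factors, with mitochondrial counts kept in the library size. Depth and saline injection went with age, so their parts in any difference cannot be told apart from it. The time and place of each collection were not given by group in the sources used here, so their parts are not known. Each library came from 1 mouse, and p-values measure the spread between these libraries.

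Across 16377 genes tested, 1996 (12.2%) were higher and 2038 (12.4%) lower in saline libraries at an adjusted p under 0.05 (edgeR quasi-likelihood test, Benjamini-Hochberg). Scaling to total counts outside the mitochondrial genome moved this split to 1600 higher and 2539 lower. All libraries of one group lay above all of the other in 738 genes (4.51%) that were higher and in 796 (4.86%) that were lower. The median log2 fold change of all genes tested was 0.02. With a limit of 2-fold besides the adjusted p, 542 genes were higher and 436 lower.

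Transcripts of podocytes fell. Nphs1, which encodes nephrin, the protein bound by the sorting antibodies, had 23.6 CPM in the lowest, 41.4 in the median and 62.6 in the highest young library. In saline libraries Nphs1 had 1.56, 6.48 and 9.48 CPM, so that no saline library reached any young one, and its log2 fold change was -2.78 ± 0.35 (SE, adjusted p = 2.2e-05). Of 20 podocyte markers tested, 19 fell and 0 rose, against 12.4% of all genes tested that fell, with a median log2 fold change of -1.65. The markers summed to 908 to 1851 CPM in young and 420 to 679 CPM in saline libraries. Fewer podocytes in a fraction and less of these RNAs per podocyte cannot be told apart in bulk libraries.

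**Figure D1:**
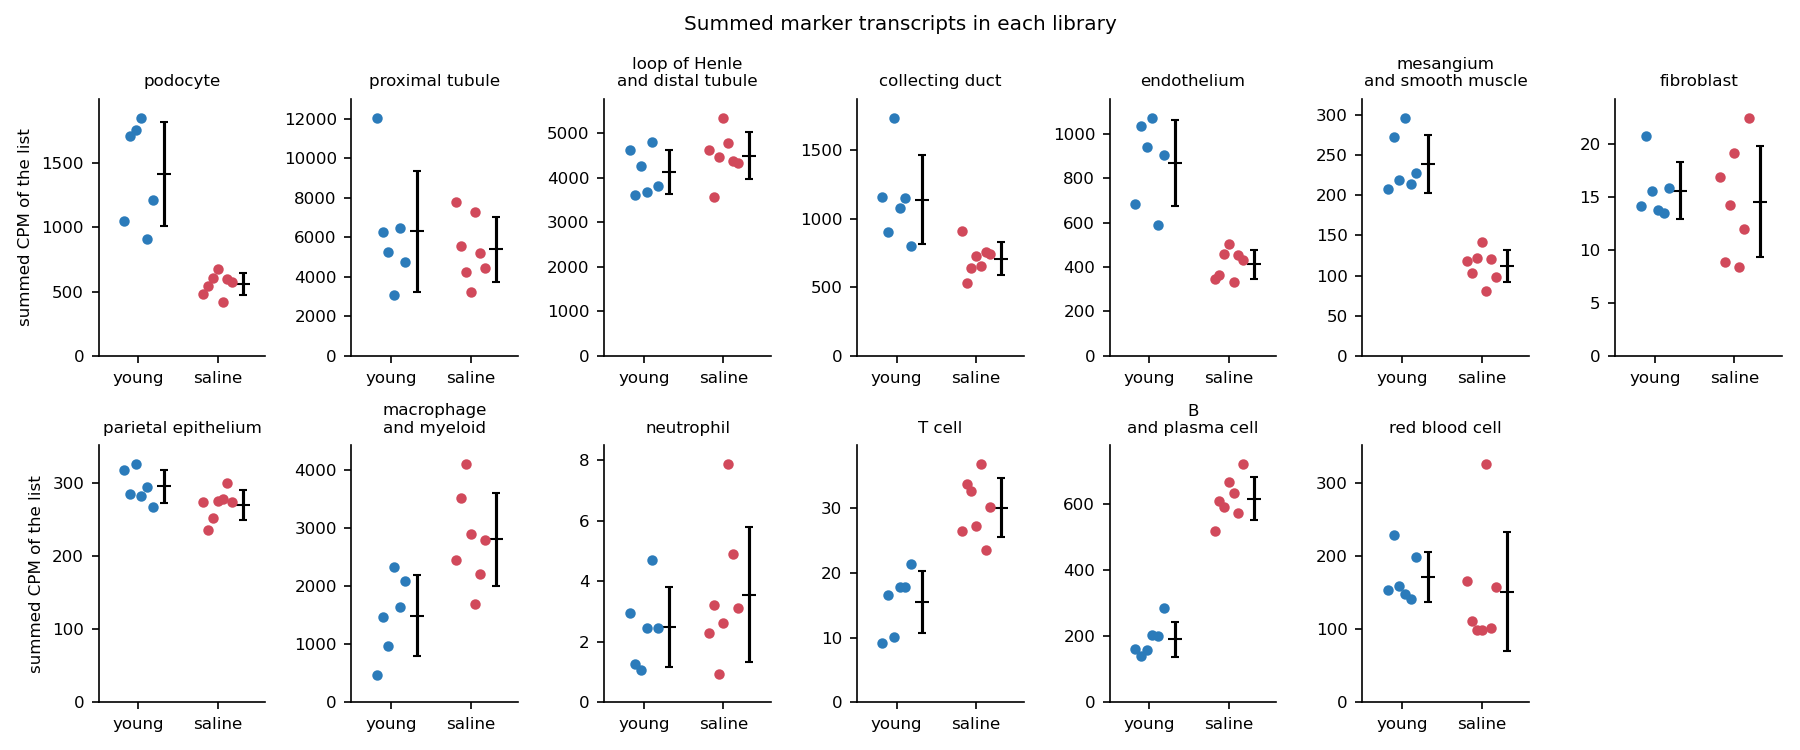
Summed CPM of each list of cell type markers in the 6 young (blue) and 7 saline (red) libraries, with black bars for the mean and SD. The podocyte, endothelium and mesangium lists lie lower in every saline library than in any young library, the T cell and B and plasma cell lists lie higher in every saline library, and the proximal tubule lists overlap.

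The rule for named genes leaves out slit diaphragm, inflammasome, immunoglobulin, mitochondrial and predicted genes, so Nphs1 is not counted in it. Its 12 largest falls were in Wt1, Thsd7a, Ddn, Shisa3, Myom2, Srgap1, Rhpn1, Cdkn1c, Npr3, Pcdh12, Podxl and Synpo, with log2 fold changes from -2.78 to -1.91. Wt1, the transcription factor that maintains podocyte identity, had 9.88 to 27.0 CPM in young and 0.706 to 4.18 CPM in saline libraries. Thsd7a, an antigen of membranous nephropathy on the podocyte surface, had 18.0 to 43.3 CPM in young and 3.18 to 7.37 CPM in saline libraries. Podxl, the sialomucin of the podocyte surface, was the most abundant of them, with a median of 592 CPM in young and 149 CPM in saline libraries. The saline library with the least Wt1 and the least Nphs1 was replicate 5. Cdkn1c, the CDK inhibitor p57 of mature podocytes, had 15.5 to 62.0 CPM in young and 4.23 to 11.9 CPM in saline libraries. Pcdh12 encodes a protocadherin of endothelium and Npr3 the natriuretic clearance receptor, and neither is in the list of podocyte markers used here.

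**Figure D2:**
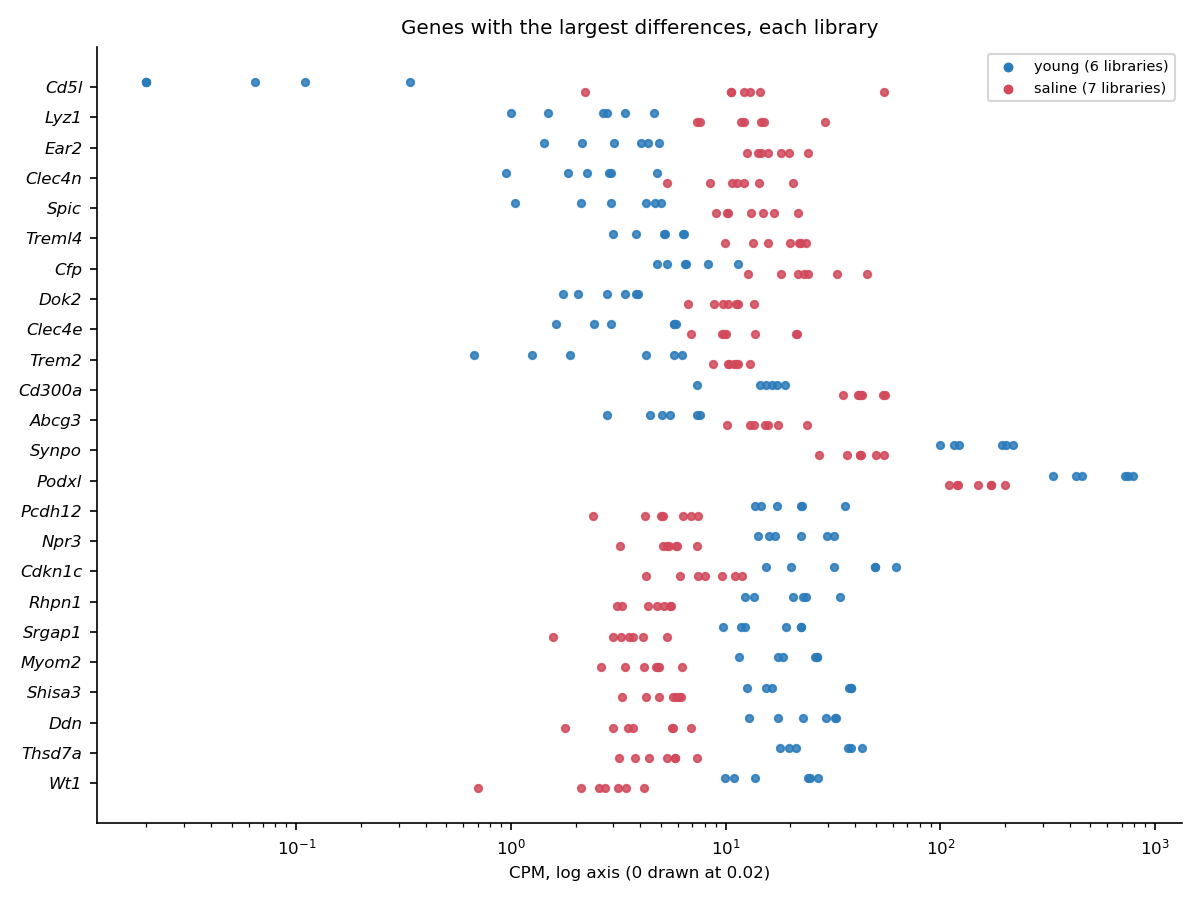
CPM on a log axis of the 12 genes with the largest rises and the 12 with the largest falls in each young (blue) and saline (red) library, with values of 0 drawn at 0.02. The rule for named genes chose genes whose groups do not overlap, so the gap between the colours is a condition of the choice.

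The fraction held RNA of other cells in both groups, and glomerular neighbours of podocytes fell with them. Of 12 endothelial markers, 11 fell (median log2 fold change -1.02), and their sum was 588 to 1071 CPM in young and 331 to 502 CPM in saline libraries. Of 11 markers of mesangium and smooth muscle, 8 fell (median -1.12). Of 12 collecting duct markers, 7 fell (median -0.59), while 2 of 11 markers of the loop of Henle and distal tubule and 1 of 20 of the proximal tubule fell and none of either list rose. Proximal tubule markers had the highest median sum of the marker lists in each group, with 3087 to 12047 CPM in young and 3258 to 7814 CPM in saline libraries, above the podocyte list in every library. Of the 9 parietal epithelium markers, 3 fell and 1 rose. The 37 solute carriers of the proximal tubule held none that passed edgeR's test (3 did at an unadjusted p under 0.05, and DESeq2 called 1 lower; median -0.25, and 0.14 without the 3 libraries of extreme mitochondrial share), with Slc34a1 at 1059.8 ± 427 CPM (SD, n = 6) in young and 857 ± 284 CPM (SD, n = 7) in saline libraries.

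Markers of leukocytes moved the other way. Of 13 macrophage and myeloid markers, 5 rose (median 0.90), of 11 T cell markers 6 (median 1.27), and of 12 B and plasma cell markers 7 (median 1.00), with none lower. The macrophage markers summed to 470 to 2336 CPM in young and 1705 to 4102 CPM in saline libraries. The T cell markers summed to 9.26 to 21.4 CPM in young and 23.6 to 36.8 CPM in saline libraries. The B and plasma cell markers summed to 140 to 286 CPM in young and 519 to 720 CPM in saline libraries. No neutrophil marker of 4 tested and no red blood cell marker of 5 tested was called by edgeR's test (0 and 1 at an unadjusted p under 0.05), and Mpo was at 0 counts in all 13 libraries.

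The basement membrane that podocytes and endothelium build together fell as a group. Of 16 genes of the glomerular basement membrane, 14 fell and 0 rose, with a median log2 fold change of -0.78. Col4a1, a chain of the embryonic and mesangial type IV collagen network, had 58.6, 78.9 and 123 CPM in the lowest, median and highest young and 33.3, 40.5 and 49.5 CPM in the saline libraries (log2 fold change -1.08 ± 0.14 (SE), adjusted p = 3.4e-05). Col4a3, a chain of the mature network that podocytes make, had 61.9, 83.9 and 94.7 CPM in young and 29.0, 35.8 and 43.3 CPM in saline libraries. Neither gene had a saline library within the young range. The other 12 that fell included the laminin chains Lamb2, Lamc1 and Lama5, the perlecan gene Hspg2, the nidogens Nid1 and Nid2, and Npnt, the integrin α8β1 ligand nephronectin. Itga8, whose product pairs with integrin β1 in mesangial cells, had 31.8 to 68.3 CPM in young and 5.43 to 22.2 CPM in saline libraries.

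Adhesion and cytoskeletal genes followed. Of 21 integrin and focal adhesion genes, 12 fell (6 in libraries thinned to equal depth) and 0 rose (median -0.36), among them Itga3, the α chain of the main podocyte integrin (54.2 ± 12.3 CPM in young, n = 6, and 24.8 ± 4.35 CPM in saline libraries, n = 7, SD) and Vcl, which encodes vinculin and links integrins to actin (45.5 ± 10.8 and 24.0 ± 2.61 CPM, SD). Of 24 genes of actin and foot processes, 14 fell (median -0.46), led by Synpo, an actin-bundling protein of foot processes, and Arhgap28, a GTPase-activating protein. Cfl1, which encodes the actin-severing protein cofilin, was the only member that rose, from 169 ± 18.3 CPM (SD, n = 6) to 239 ± 28.2 CPM (SD, n = 7, log2 fold change 0.50 ± 0.11 (SE), adjusted p = 0.0017). Of 21 podocyte transcription factors, 13 fell and 0 rose (median -0.69), with Foxc2, a forkhead factor of podocyte development, at 2.13 to 6.81 CPM in young and 0.754 to 1.61 CPM in saline libraries. Of 10 slit diaphragm genes, 8 fell.

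Signals between podocytes and capillaries were also lower. Of 30 genes of VEGF, angiopoietin, semaphorin and related guidance signalling, 18 fell and 0 rose (median -0.69). The ligand Vegfa, the growth factor that podocytes supply to the endothelium, had 160 to 237 CPM in young and 81.4 to 127 CPM in saline libraries, with no overlap (log2 fold change -0.84 ± 0.15 (SE), adjusted p = 0.00037). Its endothelial receptor Kdr had 87.2 to 150 CPM in young and 35.8 to 73.9 CPM in saline libraries. The ligand Sema3e fell the most of the list, from 5.75 ± 2.60 CPM (SD, n = 6) to 0.633 ± 0.342 CPM (SD, n = 7, log2 fold change -3.21 ± 0.37 (SE), adjusted p = 1e-05). Robo2, a guidance receptor that binds the slit diaphragm complex, had 6.51 to 13.7 CPM in young and 0.949 to 3.06 CPM in saline libraries. Ligands of podocytes and receptors of endothelium fell together, and the marker lists of both cell types fell in the same libraries. The lists share members, so this likeness is partly built in. Kdr, Flt1, Tek and Tie1 are also endothelial markers, and Robo2 and Sema3g are also podocyte markers.

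In the BMP and TGF-β pathway 11 of 29 genes fell and 0 rose (median -0.22). These included Smad6 and Smad7, the inhibitory SMADs, with Smad6 at 14.3 to 40.6 CPM in young and 7.01 to 13.6 CPM in saline libraries, and Ltbp1, which holds latent TGF-β in the matrix (log2 fold change -0.91 ± 0.16 (SE), adjusted p = 0.00036). The BMP receptors Bmpr2 and Bmpr1a and the BMP target Id1 fell as well. Of 24 renin-angiotensin and vasoactive genes, 9 fell and 0 rose (median -0.22), and 1 rose without the 3 libraries of extreme mitochondrial share. Enpep, the aminopeptidase A of podocytes and tubules that cleaves angiotensin II, had 42.0 to 83.9 CPM in young and 16.9 to 21.2 CPM in saline libraries, a narrow range that lay wholly below the young one. The angiotensin receptor gene Agtr1a had 22.3 to 33.4 CPM in young and 10.4 to 17.4 CPM in saline libraries.

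**Figure D3:**
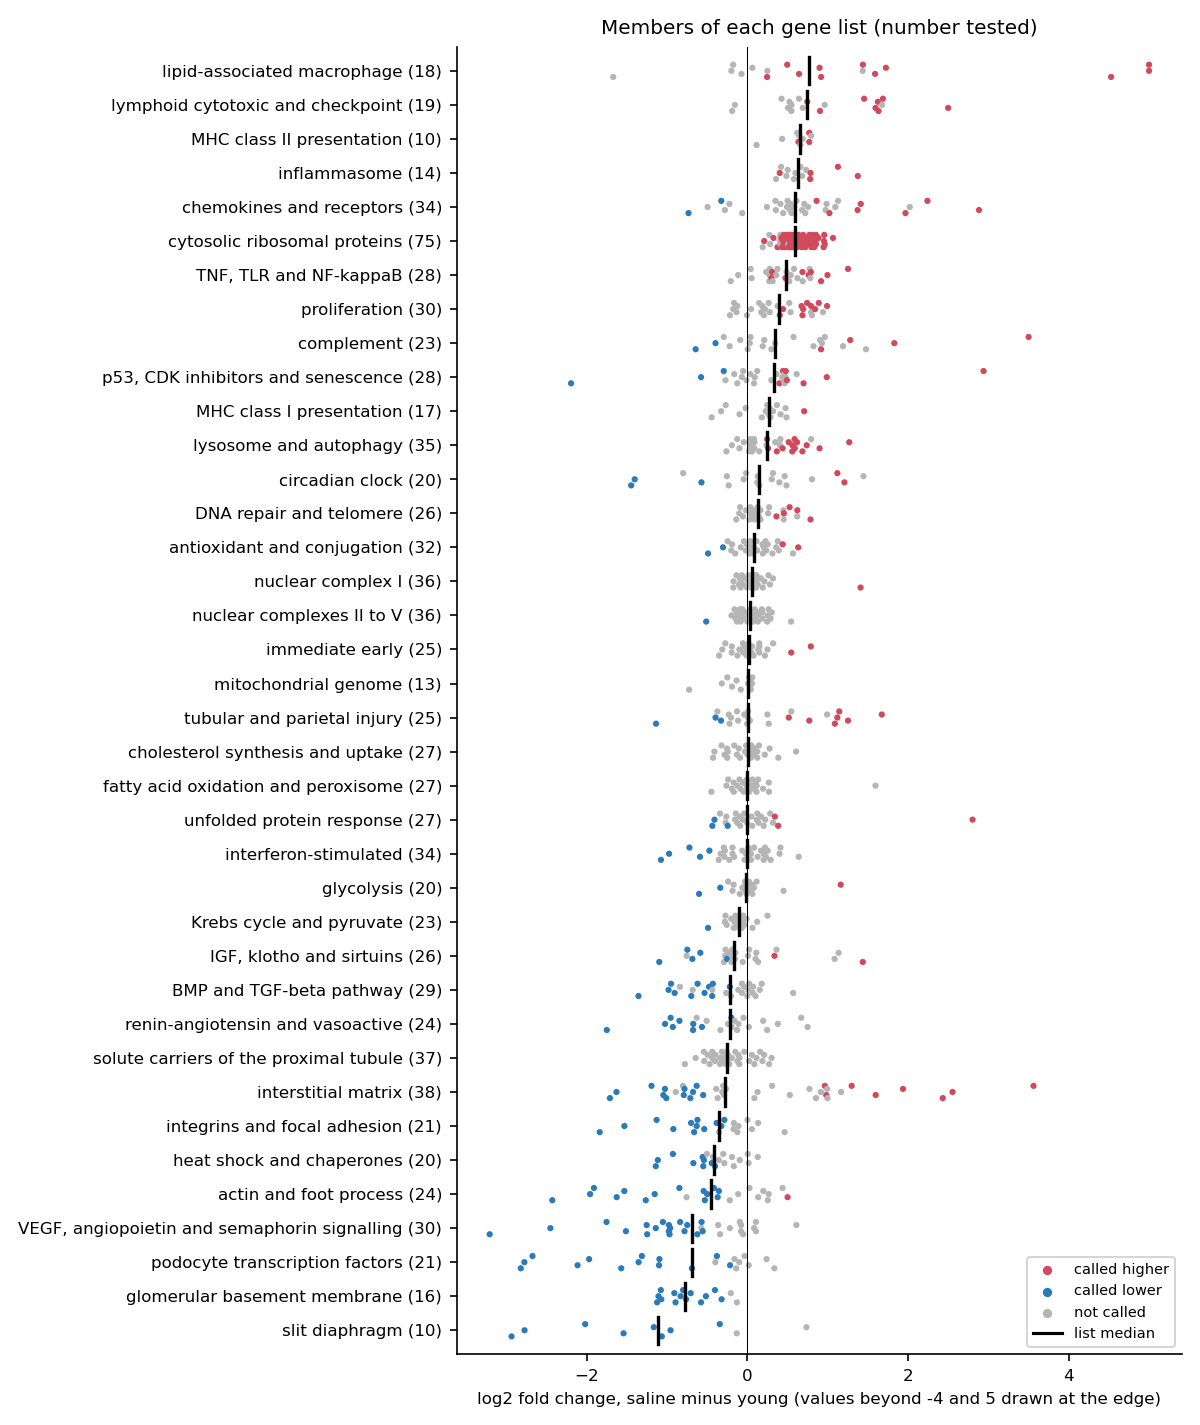
Log2 fold changes, saline minus young, of the tested members of 38 gene lists, ordered by list median (black bar), with genes called higher in red, lower in blue and not called in grey. Cytosolic ribosomal proteins form a narrow band above 0 with 68 of 75 called, the respiratory chain lists lie at 0, and the basement membrane and slit diaphragm lists are at the bottom.

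Genes of myeloid cells rose. The 12 largest rises under the rule for named genes, which leaves out immunoglobulin genes, were in Cd5l, Lyz1, Ear2, Clec4n, Spic, Treml4, Cfp, Dok2, Clec4e, Trem2, Cd300a and Abcg3, with log2 fold changes from 7.94 to 1.52. Cd5l, a secreted scavenger protein of tissue macrophages, was at 0 counts in young replicates 1, 2 and 6 and reached 0.337 CPM in replicate 5, against 2.21, 12.1 and 54.6 CPM in the lowest, median and highest saline library. Saline replicate 7 held the highest value, and the next was 14.5 CPM. No young library reached the level that the filter on low counts asks for, so Cd5l was tested only through the older libraries. That rise was thus a condition of its being tested. Spic, the transcription factor of red pulp and other iron-recycling macrophages, had 1.05 to 5.00 CPM in young and 9.03 to 21.7 CPM in saline libraries. The C-type lectin receptor genes Clec4n and Clec4e had log2 fold changes of 2.19 ± 0.39 and 1.73 ± 0.40 (SE, adjusted p = 0.00046 and 0.0034). Cd300a, an inhibitory receptor of leukocytes, was the most abundant of the 12, with 7.39 to 18.9 CPM in young and 35.1 to 55.4 CPM in saline libraries. Lyz1 shares most of its sequence with Lyz2, so its counts depend on how reads with several alignments were treated.

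Of 18 genes of lipid-associated macrophages, a state of phagocytes that take up lipid and cell debris, 11 rose and 0 fell (median 0.77). The count was 6 without the 3 libraries of extreme mitochondrial share, and 8 (median 0.38) in a fit, chosen after seeing the values, that held the score of the macrophage markers as a covariate. Gpnmb, a transmembrane glycoprotein of such macrophages, had 0.146, 0.342 and 0.561 CPM in the lowest, median and highest young library and 3.30, 7.76 and 11.8 CPM in the saline libraries (log2 fold change 4.53 ± 0.49 (SE), adjusted p = 6.4e-06). The lowest saline library was thus above the highest young library. Trem2, the lipid receptor of this state, had 0.672 to 6.27 CPM in young and 8.69 to 12.96 CPM in saline libraries. Vsig4, a complement receptor of resident macrophages, had 0 counts in each young library and 6 to 36 counts in the saline libraries. These were 0.0999 to 0.682 CPM in saline libraries, at least 17.8-fold over a limit of 3 counts over the young group. With 0 counts in young, Vsig4 passed the filter on low counts only through the older libraries. Its rise was thus a condition of its being tested and adds no support to the list. The same holds for Cd5l, another member of the list. The sum of the 18 genes had no overlap, with a mean of 1866 CPM in young and 3047 CPM in saline libraries.

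Lysosomal genes rose as well, and Ctsb and Ctsd are members of both lists. Of 35 genes of lysosome and autophagy, 14 rose and 0 fell (median 0.24), 9 without young replicate 2 or 3 or saline replicate 7, 8 without saline replicate 2, and 7 without the 3 libraries of extreme mitochondrial share. Ctsb, the cysteine protease cathepsin B, had 270 to 429 CPM in young and 445 to 814 CPM in saline libraries, and Ctsa, a carboxypeptidase that stabilizes lysosomal galactosidase, had 59.8 to 96.1 CPM in young and 104.4 to 137 CPM in saline libraries. Hydrolases (Ctsz, Ctsh, Ctsk, Hexa, Gusb, Lipa), the cholesterol exporters Npc1 and Npc2 and the regulator Tfeb were among the others that rose. The sum of all 35 did not overlap either (mean 3940 CPM in young and 5210 CPM in saline libraries). Macrophage markers rose in the same libraries, and with their score as a covariate 6 lysosomal genes were higher and 1 lower, with a median of 0.13.

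Immune signalling rose in parts. Of 34 chemokines and chemokine receptors, 7 (20.6%) rose and 2 (5.88%) fell, against 12.2% and 12.4% of all genes (median 0.60). The counts were 4 and 1 in thinned libraries, and none fell without the 3 libraries of extreme mitochondrial share. The B cell attractant Cxcl13 rose from 1.18 ± 0.568 CPM (SD, n = 6) to 5.63 ± 3.39 CPM (SD, n = 7), and the monocyte attractant Ccl8 from 1.07 ± 0.589 to 7.64 ± 2.76 CPM (SD). The scavenging receptor Ackr3 and the fractalkine gene Cx3cl1, both made by kidney epithelium and endothelium, fell (log2 fold change -0.73 and -0.33). Cx3cl1 missed the threshold without young replicate 1 or saline replicate 5 (adjusted p = 0.056 and 0.052). Of 19 lymphoid cytotoxic and checkpoint genes, 8 rose and 0 fell. Ctla4, the inhibitory receptor of regulatory and activated T cells, had 0.328 to 0.928 CPM in young and 3.2 to 5.73 CPM in saline libraries, and Nkg7 of cytotoxic granules rose from 0.264 ± 0.154 CPM (SD, n = 6) to 0.878 ± 0.415 CPM (SD, n = 7). The lymphoid count was 5 without the 3 libraries of extreme mitochondrial share and 4 with the macrophage score as a covariate.

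In the TNF, Toll-like receptor and NF-κB list 9 of 28 genes rose and 0 fell (median 0.48), 15 without young replicate 4 and 1 without the 3 libraries of extreme mitochondrial share. With the macrophage score as a covariate 1 rose and 2 fell, with a median of 0.01. Tnfrsf1b, the TNF receptor of leukocytes and endothelium, had 23.4 to 70.0 CPM in young and 75.2 to 115.3 CPM in saline libraries, and Relb, a subunit of the noncanonical NF-κB dimer, had 6.88 to 14.5 CPM in young and 12.4 to 17.7 CPM in saline libraries. The alternative-pathway stabilizer Cfp and the terminal complement gene C7 rose among 4 of 23 complement genes (17.4%, against 12.2% of all genes; 7 without young replicate 4 or saline replicate 5, and 8 with DESeq2), while C1s1 and the inhibitor Cd59a fell (1 of them in thinned libraries). C7 had 0 to 0.112 CPM in young libraries and passed the filter on low counts only through the older libraries. The rise of C7 was thus a condition of its being tested and adds no support to the complement count. Of 14 inflammasome genes, 5 rose and 0 fell. This count was 2 without young replicate 3 and 3 without young replicate 2 or saline replicate 2, 3 or 7. The inflammasome count was 2 without the 3 libraries of extreme mitochondrial share, 3 in thinned libraries, and 1 (median 0.0004) with the macrophage score as a covariate. In class II presentation, 3 of 10 genes rose (H2-Aa, H2-Eb1 and H2-Oa), and the count was 0 without any 1 of young replicates 1, 2 and 3 and saline replicate 2, 5 without young replicate 4 or saline replicate 5, and 6 without young replicate 6; it was 1 without any 1 of young replicate 5 and saline replicates 1, 3, 4 and 7. The class II count was also 0 without the 3 libraries of extreme mitochondrial share and with the macrophage score as a covariate, 1 in thinned libraries and 6 with DESeq2. In class I presentation 1 of 17 rose, the immunoproteasome subunit Psmb8, which missed the threshold without young replicate 3 or saline replicate 2, and the count was 0 without the 3 libraries of extreme mitochondrial share.

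Interferon-stimulated genes gave few calls. Of 34 tested, 0 rose and 5 (14.7%) fell, near the 12.4% of all genes that fell, with a median log2 fold change of -0.0043. Before adjustment, 0 members were higher and 6 lower at p under 0.05 with edgeR, and DESeq2 called 0 higher and 5 lower. Ifi44, an interferon-induced GTPase-like protein, had 6.74 to 11.5 CPM in young and 3.65 to 5.29 CPM in saline libraries, and Irgm1, an interferon-γ-induced GTPase, fell by 0.47 on the log2 scale. The 5 that fell were 3 without young replicate 2 or young replicate 4. With the macrophage score as a covariate 26 fell, with a median of -0.66. The textbook members Isg15 and Ifit1 had log2 fold changes of -0.02 ± 0.24 and -0.29 ± 0.29 (SE).

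Cytosolic ribosomal proteins rose together. Of 75 tested, 68 (90.7%) rose and 0 fell, against 12.2% of all genes tested that rose, and all 75 had a fold change above 0 (median 0.60 on the log2 scale), with members from 0.19 to 1.07. Rps9, of the small subunit, had 10.3, 12.5 and 18.6 CPM in the lowest, median and highest young and 20.6, 26.6 and 28.3 CPM in the saline libraries (log2 fold change 0.96 ± 0.13 (SE), adjusted p = 3.6e-05). Rplp0, of the stalk of the large subunit, had 85.9, 90.2 and 110.2 CPM in young and 125, 143 and 151 CPM in saline libraries. No saline library of either gene was within the young range. The 75 genes summed to a mean of 1347 CPM in young and 1983 CPM in saline libraries. The count was 60 without the 3 libraries of extreme mitochondrial share and 60 in libraries thinned to equal depth, and the median was 0.58 with relative log expression factors and 0.54 with scaling to total counts. Ribosomal protein genes have many processed copies in the genome, so their counts also depend on the treatment of reads with several alignments.

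Genes of the respiratory chain gave few calls. Of 36 nuclear complex I genes, 1 rose and 0 fell (median 0.06), and the one that rose, Ndufa12, lay under 1 CPM in every library and was not called in thinned libraries. With the macrophage score as a covariate 15 of the 36 were higher. Of 36 nuclear genes of complexes II to V, 0 rose and 1 fell (0 without the 3 libraries of extreme mitochondrial share; 12 rose with the macrophage score as a covariate), the electron carrier Cycs (46.4 ± 8.90 CPM in young, n = 6, and 32.5 ± 5.70 CPM in saline libraries, n = 7, SD). None of the 13 mRNAs of the mitochondrial genome was called by edgeR's test (1 was lower at an unadjusted p under 0.05, and DESeq2, and the fit without the 3 libraries of extreme mitochondrial share, each called 1 lower), with COX1, a core subunit of complex IV, at a mean of 246103 CPM in young and 255755 CPM in saline libraries.

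Transcript length went with direction across the remaining genes. Of 648 genes with a longest transcript of up to 1000 bases, ribosomal proteins apart, 17.7% were higher and 3.40% lower (median 0.16). Of 813 genes over 8000 bases, 3.08% were higher and 32.7% lower (median -0.18). In the 3 classes between, the share that rose was 15.1%, 12.3% and 6.75% and the share that fell 5.96%, 10.2% and 20.2%, from shorter to longer. The median of the longest transcript was 1106 bases for the ribosomal protein genes, 1026 bases for nuclear complex I and 1298 bases for nuclear complexes II to V. The part of length in the changes of the lists was not tested.

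**Figure D4:**
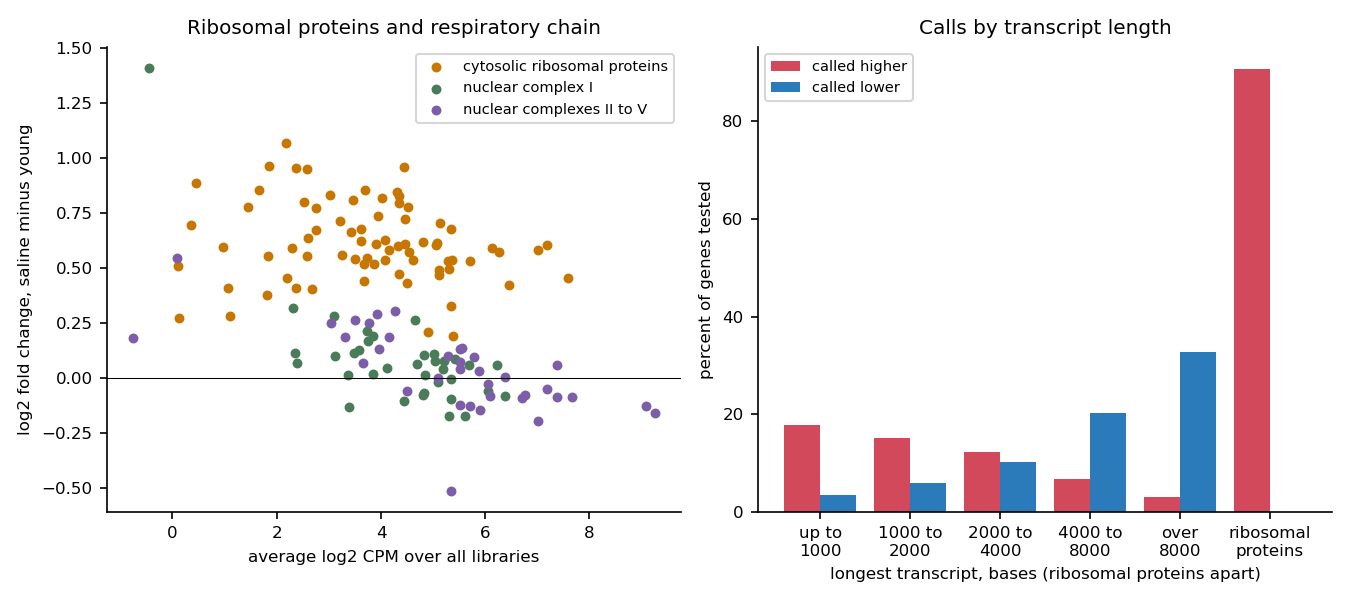
Left, log2 fold change against average log2 CPM for cytosolic ribosomal proteins (orange), nuclear complex I (green) and nuclear complexes II to V (purple). Right, the percent of tested genes called higher (red) and lower (blue) in classes of longest transcript with ribosomal proteins apart; lower calls grow from 3.40% to 32.7% with length, and 90.7% of ribosomal protein genes were called higher.

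Metabolic lists showed few calls. In fatty acid oxidation and peroxisomes 0 of 27 genes passed the test, and in cholesterol synthesis and uptake 0 of 27, with list medians of -0.0014 and 0.0022 on the log2 scale (edgeR quasi-likelihood test). At an unadjusted p under 0.05 these lists gave 1 and 4 genes, and DESeq2 called 1 and 2. With the macrophage score as a covariate 10 genes of fatty acid oxidation were higher. In the Krebs cycle list 1 of 23 passed, Idh3a, a subunit of isocitrate dehydrogenase, which fell from 53.2 ± 6.40 CPM (SD, n = 6) to 37.9 ± 4.65 CPM (SD, n = 7). Of 20 glycolysis genes 1 rose, the lactate exporter Slc16a3 (log2 fold change 1.16 ± 0.25 (SE), adjusted p = 0.0018), and 2 fell (1 without the 3 libraries of extreme mitochondrial share), the hypoxia regulator Hif1a and the glucose transporter Slc2a1. These were 5.0% and 10.0% of the list, under the 12.2% and 12.4% of all genes. Hif1a had no overlap, with 37.2 to 54.7 CPM in young and 26.7 to 35.1 CPM in saline libraries. Slc2a1 missed the threshold without young replicate 3 or 5 or saline replicate 2 or 5 (adjusted p = 0.0515 to 0.116). Among 32 antioxidant and conjugation genes, the metallothioneins Mt1 and Mt2, which bind zinc and copper, rose, and Gstm2 and Srxn1 fell. Each direction was 6.25% of the list, also under the shares of all genes. The 2 falls were 0 without young replicate 1 or young replicate 3, in thinned libraries, and without the 3 libraries of extreme mitochondrial share, where 4 members rose, and 9 rose with the proximal tubule score as a covariate. In single genes, Mt1 missed the threshold without young replicate 1, 2 or 3 or saline replicate 6. Mt2 had 19.0 to 31.4 CPM in young and 33.2 to 55.4 CPM in saline libraries.

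The circadian clock runs on the activators ARNTL, CLOCK and NPAS2, which drive E-box genes, among them their own repressors PER, CRY, CIART and BHLHE41. Of 20 clock genes tested, 3 (15.0%) fell, all activator genes, and 2 (10.0%) rose, both repressor genes, shares near the 12.4% and 12.2% of all genes. The repressor genes Per1, Per2, Per3 and Cry1 were not called, with log2 fold changes of 0.32, 0.13, 0.80 and -0.80. The repressors as a set thus did not move together. The count that rose was 7 with the proximal tubule score as a covariate. As sequence context for the called repressor genes, the 300-base promoters of Ciart, Bhlhe41 and Arntl are printed 5′ to 3′ from 250 bases before to 50 after the annotated start (RefSeq, GRCm38.p6), in lower case with each E-box, CACGTG, in capitals. Ciart is at chr3:95882179-95882478 on the minus strand, Bhlhe41 at chr6:145865371-145865670 on the minus strand, and Arntl at chr7:113207215-113207514 on the plus strand, the first of its 2 promoters.
Ciart: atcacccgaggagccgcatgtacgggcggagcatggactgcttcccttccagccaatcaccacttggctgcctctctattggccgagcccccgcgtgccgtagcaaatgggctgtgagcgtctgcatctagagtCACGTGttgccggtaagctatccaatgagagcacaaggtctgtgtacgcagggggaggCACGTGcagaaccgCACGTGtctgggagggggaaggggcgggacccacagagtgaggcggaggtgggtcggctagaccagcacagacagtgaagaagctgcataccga
Bhlhe41: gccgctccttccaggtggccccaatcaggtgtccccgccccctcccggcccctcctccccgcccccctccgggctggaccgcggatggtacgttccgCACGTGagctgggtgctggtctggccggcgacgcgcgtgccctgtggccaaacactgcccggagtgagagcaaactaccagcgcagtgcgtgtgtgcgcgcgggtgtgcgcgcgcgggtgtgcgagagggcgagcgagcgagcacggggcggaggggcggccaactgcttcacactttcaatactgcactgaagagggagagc
Arntl: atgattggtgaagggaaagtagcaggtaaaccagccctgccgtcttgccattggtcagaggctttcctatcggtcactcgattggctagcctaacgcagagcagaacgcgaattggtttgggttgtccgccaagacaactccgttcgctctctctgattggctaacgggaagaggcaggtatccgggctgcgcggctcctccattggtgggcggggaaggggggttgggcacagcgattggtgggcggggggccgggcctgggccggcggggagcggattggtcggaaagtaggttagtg
The E-boxes of Ciart begin at positions 135, 193 and 207 and that of Bhlhe41 at position 98, counted from 1 at the 5′ end of the printed window. The window of Arntl shows none, nor do those of Clock and Npas2. The letters CACGTG read alike on both strands and stand in 7.15% of all 32851 promoters, in 8.09% of genes with a promoter, and in 5 of the 17 clock genes with a promoter (Per1, Cry1, Tef, Bhlhe41 and Ciart). A match of letters is a description of the window and not a binding site.

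Clock had 22.8, 26.6 and 34.4 CPM in the lowest, median and highest young and 17.6, 19.0 and 19.8 CPM in the saline libraries, with no overlap (log2 fold change -0.57 ± 0.08 (SE), adjusted p = 4.3e-05). Its partner Arntl had 3.01, 7.36 and 11.3 CPM in young and 1.55, 2.83 and 3.62 CPM in saline libraries (log2 fold change -1.40 ± 0.34 (SE), adjusted p = 0.0049), and young replicate 1 lay within the saline range. Npas2, which can replace CLOCK, had 1.89 to 5.78 CPM in young and 0.548 to 1.83 CPM in saline libraries. Ciart had 0.646 to 2.65 CPM in young and 2.39 to 6.75 CPM in saline libraries, and Bhlhe41 had 0.968 to 1.82 and 2.30 to 4.10 CPM. The output gene Dbp did not pass the test (log2 fold change 1.44 ± 0.61 (SE), adjusted p = 0.090), with 17.4, 14.7, 2.00, 1.06, 5.33 and 6.44 CPM in young replicates 1 to 6. Saline values ran from 11.7 to 37.7 CPM, and young replicates 1 and 2 lay within that range. Without young replicate 1, 4 clock genes rose in place of 2.

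Arntl and Dbp correlated negatively across libraries of each age. The pairs of clock genes set here were not planned, and Dbp and Per3 were named after their values were seen. The adjustment covers only the 6 relations shown and not the choice of pairs, so these p-values are a description. Over the 6 young libraries Pearson's r of their log2 CPM was -0.95 and Spearman's rho -1.0 (exact permutation p = 0.0028 for each, adjusted p = 0.017 over 6 relations of clock genes). Over the 7 saline libraries r was -0.92 and rho -0.93 (exact permutation p = 0.0087 and 0.0067, adjusted p = 0.023 and 0.020). Without the 2 libraries farthest from the median of Arntl, r was -0.97 in young and -0.82 in saline libraries. Arntl and Npas2 correlated with r of 0.82 in young and 0.85 in saline libraries (exact permutation p = 0.019 and 0.018, adjusted p = 0.023 each; rho 0.89 and 0.75, adjusted p = 0.050 and 0.066), and r was 0.91 and 0.58 without the 2 farthest. Dbp and Per3 correlated with r of 0.90 and 0.92 (exact permutation p = 0.025 and 0.012, adjusted p = 0.025 and 0.023; rho 0.83 and 0.89, adjusted p = 0.066 and 0.025), and r was 0.92 and 0.70 without the 2 farthest. The hour of collection was not given in the sources used here, so hour and age cannot be told apart for these genes. Among young libraries, replicate 1 had the highest Dbp (17.4 CPM) and the highest proximal tubule marker sum (12047 CPM). Young replicate 4 had the lowest of both (1.06 and 3087 CPM). Among saline libraries, Dbp was highest in replicate 6 (37.7 CPM), where that sum was at its median (5231 CPM). The part of cell mix in these correlations was not tested.

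**Figure D5:**
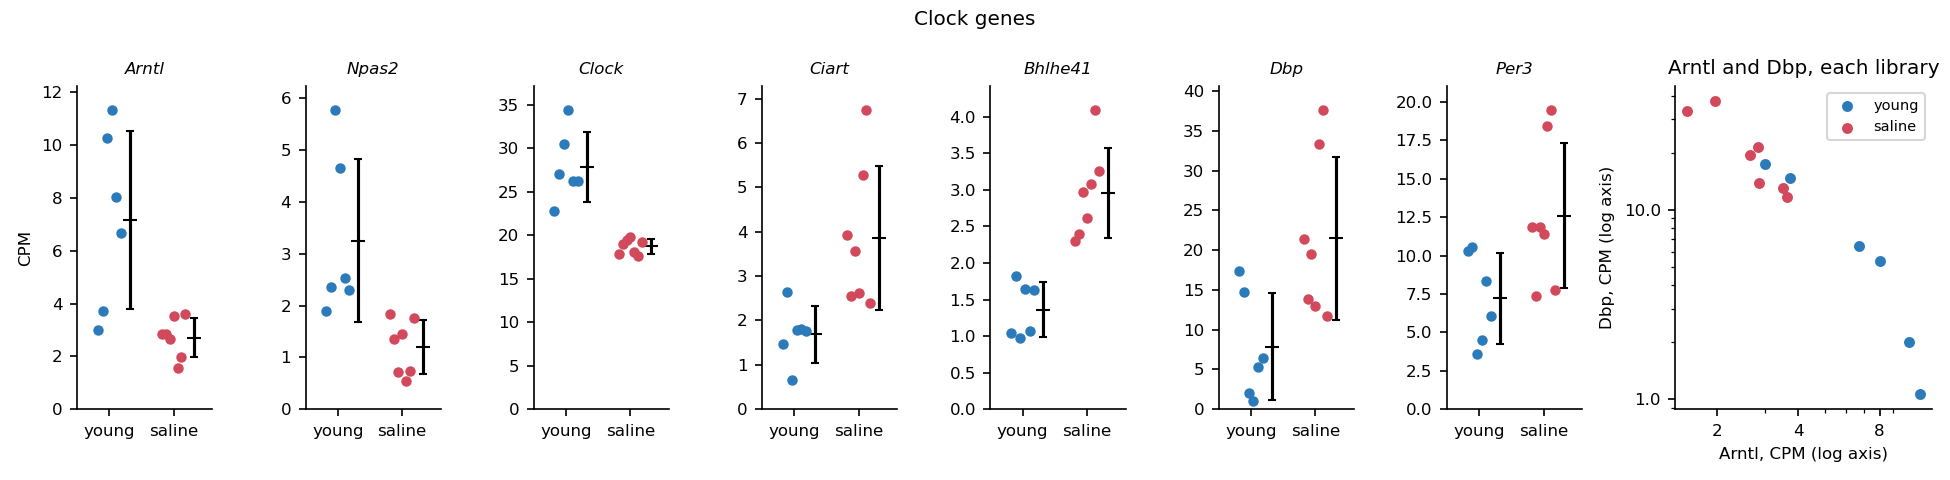
CPM of 7 clock genes in each young (blue) and saline (red) library with mean and SD, and at right Dbp against Arntl on log axes. Clock and Npas2 lie lower and Bhlhe41 higher in each saline library than in any young library, and Dbp is lower where Arntl is higher, in strict order across the young libraries and with a rho of -0.93 across the saline libraries.

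Chaperones were lower. Of 20 heat shock and chaperone genes, 9 fell and 0 rose (median -0.42). Serpinh1, the collagen chaperone HSP47 of the endoplasmic reticulum, had 28.5, 39.0 and 66.2 CPM in the lowest, median and highest young and 18.8, 22.6 and 25.4 CPM in the saline libraries (log2 fold change -0.93 ± 0.15 (SE), adjusted p = 0.00024). The small heat shock proteins Hspb8 and Hspb1, which hold unfolded proteins and bind actin-associated partners, had log2 fold changes of -1.14 ± 0.19 and -1.12 ± 0.24 (SE, adjusted p = 0.00028 and 0.0023). Hspb1 had 12.7 to 45.3 CPM in young and 10.3 to 16.1 CPM in saline libraries. The inducible Hspa1a, whose sequence is nearly that of Hspa1b, spread from 229.6 to 1118 CPM in young libraries and from 439 to 573 CPM in saline libraries and did not pass the test (log2 fold change -0.43 ± 0.30 (SE), adjusted p = 0.31). The promoter of Hspb1 (RefSeq, GRCm38.p6, chr5:135887669-135887968, plus strand) is printed as context, with GAANNTTC, a core of the heat shock element, in capitals.
Hspb1: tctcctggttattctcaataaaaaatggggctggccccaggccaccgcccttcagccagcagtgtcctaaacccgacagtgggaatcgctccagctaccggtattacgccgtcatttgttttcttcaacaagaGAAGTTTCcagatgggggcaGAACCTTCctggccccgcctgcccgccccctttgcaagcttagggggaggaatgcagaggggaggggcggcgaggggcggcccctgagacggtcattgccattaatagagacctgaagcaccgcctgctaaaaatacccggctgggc
These cores begin at positions 134 and 154 of the window. The promoter window of Serpinh1 holds no such core. GAANNTTC reads alike on both strands, stands in 7.86% of all promoters, in 9.04% of genes with a promoter, in 10 of the 14 chaperone genes with a promoter, and in 5 of the 8 of them that fell. The longer 13-letter heat shock element stands in 4 of the 14, not in Hspb1, and in 0.662% of genes. The search for the core was added after the values were seen.

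Immediate early genes, which rise within minutes of tissue dissociation, gave 2 calls among 25 (8.0%, against 12.2% of all genes that rose), with a list median of 0.01. The count was 0 without the 3 libraries of extreme mitochondrial share and with scaling to total counts. Dusp2 and Myc rose (log2 fold change 0.79 and 0.55), and each missed the threshold in most fits without 1 library (adjusted p up to 0.11 for Dusp2 and 0.12 for Myc). Fos had 963 to 1506 CPM in young and 882 to 1233 CPM in saline libraries and was not called. In the unfolded protein response 3 of 27 genes (11.1%) rose and 3 fell (median -0.0032), near the shares of all genes. Derl3, which moves misfolded proteins out of the endoplasmic reticulum and is abundant in plasma cells, had 0.249 to 1.46 CPM in young and 4.44 to 5.82 CPM in saline libraries. The B and plasma cell markers rose in the same libraries, but they include Derl3 itself and Xbp1 of this list. Their rise is thus not independent of that of Derl3.

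Some cell cycle and DNA repair genes rose. Of 30 proliferation genes, 10 (33.3%) rose and 0 fell (median 0.39), 6 without young replicate 3 or in thinned libraries, 4 with the macrophage score as a covariate and 4 without the 3 libraries of extreme mitochondrial share. Tk1, the thymidine kinase of S phase, had 2.04 to 2.86 CPM in young and 3.27 to 5.63 CPM in saline libraries, and Mcm6, of the replicative helicase, had 4.94 to 7.44 and 8.61 to 12.2 CPM. Of 26 genes of DNA repair and telomeres, 5 (19.2%, against 12.2% of all genes) rose and 0 fell (median 0.13). The count was 3 without young replicate 3 or without the 3 libraries of extreme mitochondrial share, and 1 in thinned libraries. Those that rose included Brca2 of homologous recombination (1.49 ± 0.187 CPM in young, n = 6, and 2.56 ± 0.388 CPM in saline libraries, n = 7, SD) and the shelterin genes Acd, Pot1b and Tinf2. Of 28 genes of p53, CDK inhibitors and senescence, 7 rose and 3 fell (4 and 1 in thinned libraries). The share that rose was above the 12.2% of all genes. The share that fell was 10.7%, under the 12.4% of all genes. The proapoptotic Bax rose from 10.8 ± 0.944 CPM (SD, n = 6) to 15.0 ± 1.44 CPM (SD, n = 7), and Cdkn2d, the INK4 inhibitor p19, from 7.15 ± 0.625 to 9.70 ± 0.612 CPM (SD). The death receptor gene Fas fell with Cdkn1c. Cdkn1a, the p53 target p21, ranged from 40.3 to 99.1 CPM in young and from 47.5 to 77.9 CPM in saline libraries and was not called.

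Growth factor and longevity genes split. Among 26 genes of IGF signalling, klotho and sirtuins, 2 (7.69%) rose and 5 (19.2%) fell (3 in thinned libraries). The shares of all genes tested were 12.2% and 12.4%, so the share that rose was under that of all genes. Igf1, the growth factor itself, had 3.31, 6.67 and 10.4 CPM in the lowest, median and highest young and 11.2, 17.5 and 25.2 CPM in the saline libraries (log2 fold change 1.44 ± 0.30 (SE), adjusted p = 0.0018). Its binding protein gene Igfbp5 moved the opposite way, with 529 to 795 CPM in young and 179 to 447 CPM in saline libraries, and Igf2 fell from 6.65 ± 0.765 CPM (SD, n = 6) to 3.96 ± 0.846 CPM (SD, n = 7). Kl, the distal tubule gene of klotho, the FGF23 coreceptor, had 333 to 581 CPM in young and 212 to 341 CPM in saline libraries (log2 fold change -0.69 ± 0.17 (SE), adjusted p = 0.0065). The nuclear sirtuin Sirt7 rose by a log2 fold change of 0.34.

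Injury and matrix genes showed both directions. Of 25 genes of tubular and parietal injury, 7 rose and 3 fell (1 in thinned libraries). The share that rose was above the 12.2% of all genes, and the share that fell was near the 12.4% of all genes. Plin2, which coats lipid droplets, had 23.9, 29.5 and 35.5 CPM in the lowest, median and highest young and 55.3, 64.0 and 76.1 CPM in the saline libraries (log2 fold change 1.12 ± 0.15 (SE), adjusted p = 4.3e-05), and all saline libraries were above all young ones. The calcium-binding S100a6 and the tubular injury gene Lcn2 rose with no overlap as well, and Havcr1, which encodes KIM-1, rose from 0.518 ± 0.411 CPM (SD, n = 6) to 1.59 ± 0.713 CPM (SD, n = 7). Ccn2, the connective tissue growth factor that podocytes express, fell from 112.2 ± 37.1 to 51.0 ± 11.8 CPM (SD).

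Of 38 genes of interstitial matrix, 8 (21.1%) rose and 12 (31.6%) fell (4 and 11 without the 3 libraries of extreme mitochondrial share, and 4 and 10 in thinned libraries). Fn1, fibronectin, had 4.13 to 8.70 CPM in young and 11.8 to 31.6 CPM in saline libraries, and Mmp9, gelatinase B, had 0.112 to 0.802 and 1.30 to 5.47 CPM. The collagen crosslinking enzyme gene Loxl2 and the collagen-binding Sparc fell (log2 fold change -1.71 ± 0.26 and -1.19 ± 0.19 (SE), adjusted p = 0.00011 and 0.00015). The partners of type I collagen, chosen after their values were seen, parted. Col1a1 had 0.129 to 0.954 CPM in young and 0.728 to 2.41 CPM in saline libraries (log2 fold change 1.94 ± 0.62 (SE), adjusted p = 0.026), while Col1a2 had 1.52 to 5.04 CPM in young and 0.998 to 2.38 CPM in saline libraries (log2 fold change -1.03 ± 0.26 (SE), adjusted p = 0.0065). The fibroblast markers summed to 13.5 to 20.7 CPM in young and 8.41 to 22.4 CPM in saline libraries.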

How the data were processed

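Cells of digested mouse kidney cortex were enriched with antibodies to nephrin and magnetic beads, and poly(A) RNA of 21 mice was sequenced. Per the study's methods and the submitters' processing notes, the authors trimmed reads with Trim Galore, aligned them with Bowtie2 to mm10 and counted them with featureCounts. The deposited values used here are raw counts per gene for each library. The strand setting and the treatment of reads with several alignments were not given in the sources used here. The authors' normalized table was not used.

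Of 27179 genes listed by Entrez number, 25275 were named from RefSeq (GRCm38.p6), 18 from GENCODE M21 and 1886 had no name. Counts of all 21 libraries were fitted by edgeR 4.0.16 (R 4.3.3) with TMM factors and its filter on low counts, leaving 16377 genes. Saline was compared with young by the quasi-likelihood test with Benjamini-Hochberg adjustment. The SE of a log2 fold change was its size over the root of its F statistic. DESeq2 1.42.0, other scalings, filters, covariates, thinned libraries and fits without each library were alternatives. The steps were tested on simulated data.

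Named genes were the 12 largest rises and falls among abundant genes called with no overlap between groups, leaving out immunoglobulin, slit diaphragm, inflammasome, mitochondrial and predicted genes, up to 2 members per direction of each list with the smallest adjusted p, and Nphs1. Other genes named were chosen after their values were seen. The gene lists and members were chosen with earlier results of these data known. CPM keeps mitochondrial counts in the library size, and its precision rests on 5804891 to 27818925 counts outside that genome per library. Some genes are not reported here.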

Additional observations from a re-analysis of the deposited data

Results flagged for a closer look

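In 9 of 218 groups of libraries tested, 1 library stood apart from the rest of its group by Dixon's test, and chance alone flags about 1 group in 20. Among young libraries, Col4a2 stood apart at 92.6 CPM in replicate 4 (next 67.5), Cd5l at 0.337 CPM in replicate 5 (next 0.109), and Lrp2 at 386 CPM in replicate 1 (next 193). Among saline libraries, Ctla4 stood apart at 5.73 CPM in replicate 2 (next 3.81), Cd5l at 54.6 CPM in replicate 7 (next 14.5), Mt1 at 115.6 CPM in replicate 6 (next 88.05), Fn1 at 31.6 CPM in replicate 5 (next 16.7) and Lyz1 at 29.1 CPM in replicate 3 (next 15.1). Sirt7 was lowest at 22.5 CPM in saline replicate 4 (next 26.9).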

How the results depend on the processing

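Fits without 1 library gave 1353 to 2270 genes higher and 1638 to 2403 lower, lowest without young replicate 3 and highest without young replicate 6. Thinning all libraries to equal depth gave 1273 higher and 1123 lower, 2303 of them among the 4034 called. Without the 3 libraries of extreme mitochondrial share, 1323 genes were higher and 1701 lower (chosen after seeing the data). A threshold of unadjusted p and a 2-fold change gave 661 higher and 479 lower. With a replicate block, 2219 genes were higher and 1888 lower, among them 8 clock genes and 16 of the TNF and NF-κB list that rose. The replicate numbers did not pair the samples, since deviations of same-numbered samples correlated from -0.06 to 0.35, and young replicate 1 correlated best with saline replicate 5. Of 103 named genes called, DESeq2 kept the call of 103 and scaling to total counts of 99.

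With the podocyte marker score as a covariate, whose values do not overlap between the groups, so that group and score nearly coincide, 6 genes were higher and 0 lower, and 1 of 103 named genes kept its call, 82 lost it and 20 changed direction. The list medians that changed direction were 0.16 for slit diaphragm, 0.059 for actin and foot process, 0.0061 for integrins, 0.057 for BMP and TGF-β, -0.0031 for lymphoid genes, -0.37 for complex I, -0.33 for complexes II to V, -0.42 for antioxidant genes, 0.016 for heat shock and 0.61 for interstitial matrix. The named genes that changed direction had log2 fold changes of 0.084 (Nphs1), 0.066 (Foxc2), 0.0061 (Itga3), 0.16 (Smad6), -0.0011 (H2-Oa), 0.083 (Cd59a), 0.65 (C1s1), 0.061 (Cx3cl1), 0.0049 (Slc2a1), 0.073 (Serpinh1), 0.35 (Hspb8), 0.025 (Hspa13), 0.28 (Cdkn1c), -0.17 (Sirt7), 0.58 (Ccn2), 0.058 (Anxa1), 0.29 (Loxl2), 0.37 (Sparc), 0.018 (Shisa3) and 0.28 (Pcdh12). With the macrophage score as a covariate, also chosen after seeing the data, list medians that changed direction were -0.13 for class I and -0.0091 for class II presentation, -0.081 for complement, 0.15 for the Krebs cycle, 0.44 for fatty acid oxidation, 0.38 for proximal tubule solute carriers and 0.044 for IGF genes. In that fit 1722 genes were higher and 1707 lower, 2208 of them (54.7% of the 4034) called without it, and 26 interferon-stimulated genes fell. With the proximal tubule score as a covariate 2698 genes were higher and 2295 lower, among them 20 of the TNF and NF-κB list, 9 antioxidant and 7 clock genes that rose. Some lists and genes share members with the scores. The complement genes C1qa, C1qb, C1qc and Itgam are macrophage markers, and Cdkn1c is a podocyte marker. Magi2 of the slit diaphragm list and Podxl, Nes and Clic5 of the actin and foot process list are podocyte markers too. For these, the covariate holds part of what it adjusts, so their shift toward or past 0 is partly built in. The cause of the reversals and shifts was not tested.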
